A study of Mus musculus with 9 samples.

Results

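Polycomb repressive complex 1 (PRC1) is assembled on a pair of ring finger proteins, a RING subunit and a PCGF subunit, and the transcripts of the 8 mouse genes for these subunits were followed in L8057 cells. The RING genes are Rnf2, which encodes Ring1b, and Ring1. The PCGF genes are Bmi1, Pcgf1, Pcgf2, Pcgf3, Pcgf5 and Pcgf6. Every probe set that the platform annotation assigns to 1 of these symbols alone was taken, whatever its values, which gave 20 of the 45037 probe sets tested and 8 of the 18193 genes named in this way. Rnf2 was read by 5 probe sets, Pcgf3, Pcgf5 and Pcgf6 by 3 each, Bmi1 and Pcgf2 by 2 each, and Ring1 and Pcgf1 by 1 each. No filter on dim signals was applied, so all 20 were tested, and 7 of them had a mean over the arrays below the median of all probe sets (6.58).

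L8057 is a mouse megakaryoblastic leukaemia line that matures towards megakaryocytes when treated with the phorbol ester TPA. The arrays compare cells with an shRNA against CBFb (CBFb_KD), cells with an shRNA against Ring1b (Ring1b_KD) and cells with an empty vector (Control), with 3 arrays in each of the 3 groups. All groups were infected with a lentivirus, received puromycin and 50 nM TPA 48 h after infection, and were harvested 72 h later, so there is no group without vector, selection or TPA. CBFb is the partner that stabilises RUNX proteins on DNA, and the study asked how core binding factors and PRC1 relate on chromatin. The model is 1 cell line. The labels give neither the number of hairpins per target nor whether cultures were infected separately, and p-values therefore measure the spread between these arrays, which may be technical. In RNA from whole cultures, fewer cells of a type and less RNA per cell cannot be told apart.

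The RING subunit carries the ubiquitin ligase activity that places ubiquitin on histone H2A, and the PCGF subunit binds it and sets which PRC1 is formed. Complexes with Bmi1 or Pcgf2 can hold chromobox and polyhomeotic proteins and are called canonical. Complexes with Pcgf1, Pcgf3, Pcgf5 or Pcgf6 hold RYBP or YAF2 and their own DNA-binding or enzymatic partners. In blood cells Bmi1 is best known for the self-renewal of stem cells and for repression of the Cdkn2a locus.

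The values are log2 signals, as deposited and then quantile normalized. A probe set was called when its limma p-value, adjusted by Benjamini-Hochberg over all 45037 probe sets of a comparison, was under 0.05. Deposited array medians lay between 6.513 and 6.651, with the Ring1b_KD arrays highest, and arrays correlated at 0.995 to 0.997 within a group and at 0.987 to 0.994 between groups. Cbfb, the target of the other hairpin, read 9.32, 9.14 and 9.12 in CBFb_KD against 12.27, 12.33 and 12.5 in Control, a 9.02-fold fall (limma adjusted p = 2.6e-09), and 12.16, 12.26 and 12.28 in Ring1b_KD. Of 12 megakaryocyte and platelet markers, 9 lay above the median probe set, led by Pf4 (mean 14.47), while Gp6 (6.3), Vwf (5.4) and Nfe2 (5.38) were below it. So did 5 of 6 mast cell, 6 of 9 granulocyte and monocyte, 5 of 8 lymphoid, 3 of 6 erythroid and 3 of 7 fibroblast and epithelial markers. Lying above the median is therefore not particular to the megakaryocyte list. The mean signal of the megakaryocyte and platelet markers per array ran from 8.22 to 8.51 in Control, 9.11 to 9.21 in CBFb_KD and 8.05 to 8.47 in Ring1b_KD. That of 6 erythroid markers ran from 7.76 to 7.86, 8.29 to 8.48 and 7.86 to 8.05, and markers of 4 other lineages had 0 to 2 called genes per list in each knockdown. With the brightest probe set per gene, 15.3% of all genes were called in CBFb_KD and 12.2% in Ring1b_KD.

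In Ring1b_KD, 6 of the 20 probe sets were called against Control, 5 lower and 1 higher, where 4.71% of all probe sets were called lower and 3.77% higher. The 5 lower ones were 3 of Rnf2 and both of Bmi1, and the higher one was a probe set of Pcgf3. Rnf2 is the target of the Ring1b hairpin, so its falls were set by the design and cannot be weighed against that share. The rest of the lower calls come from Bmi1 alone. In CBFb_KD, 1 of the 20 was called, a probe set of Pcgf6 that fell, and 0 were called higher, where 4.76% of all probe sets were called lower and 4.9% higher. A count of 1 in 20 is near that share. At an unadjusted limma p under 0.05, 8 of the 20 passed in Ring1b_KD, the 3 of Rnf2 among them, and 4 in CBFb_KD. The share of all probe sets passing at this threshold was not counted, so no excess is read from these counts. The median log2 difference over the 20 was -0.09 in Ring1b_KD and -0.02 in CBFb_KD, beside 0.01 and -0.01 over all probe sets. The Rnf2 probe sets are among the 20, so the Ring1b_KD median cannot be weighed against that over all. Probe sets of 1 gene read the same transcripts and are not independent, and both knockdowns were set against the same Control arrays. With every array centred on its median in place of quantile normalization, 7 of the 20 were called lower in Ring1b_KD and 0 higher. Over all probe sets the share of Ring1b_KD calls that were higher was 44.4% as quantile normalized and 15.1% as median-centred, so the scaling moves the balance of directions in this comparison.

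**Figure D1:**
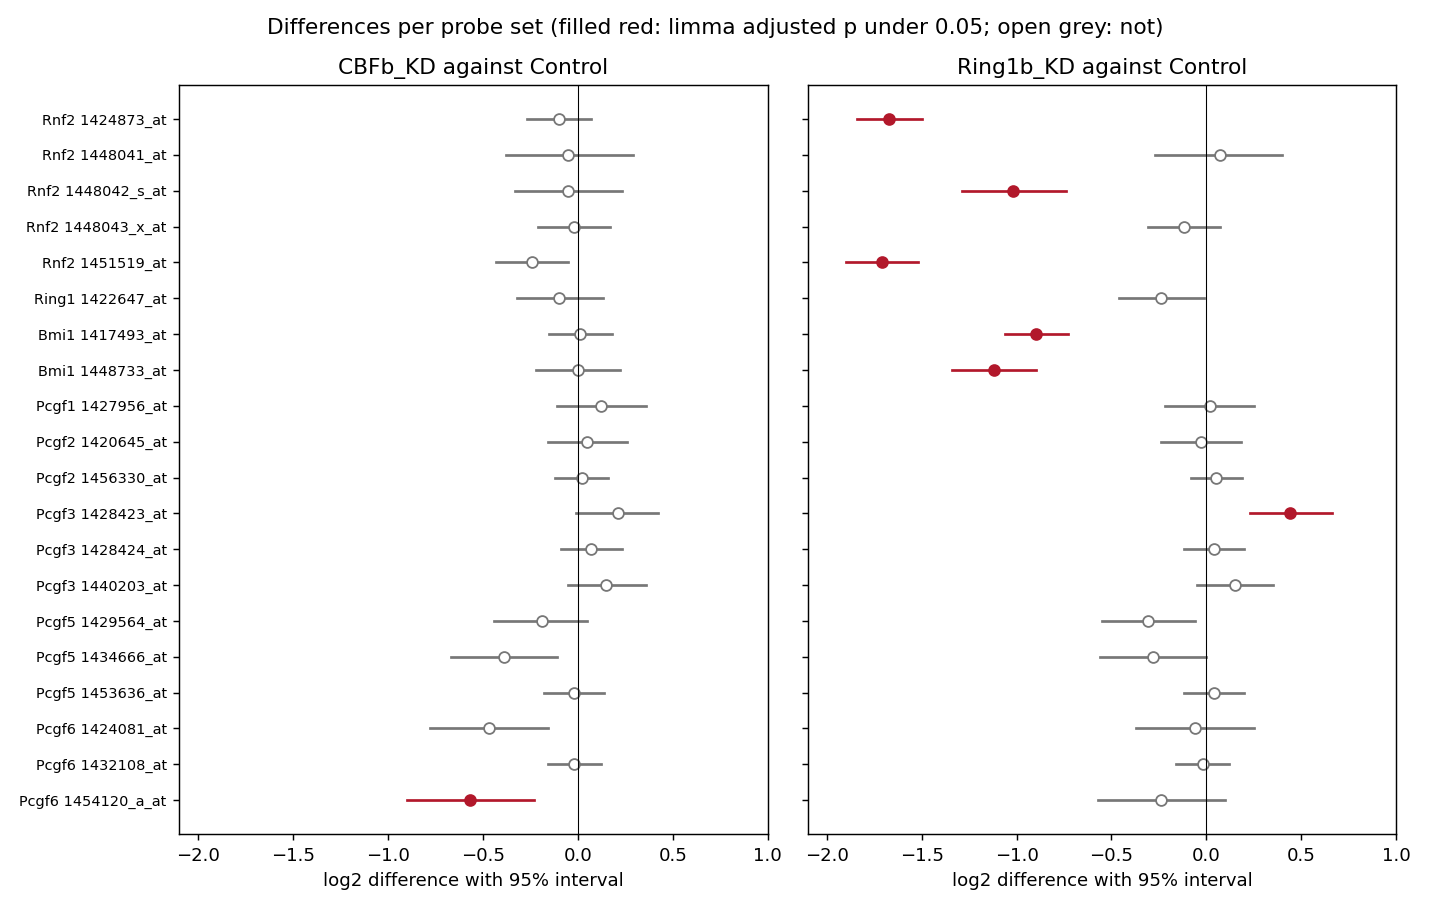
Log2 differences of the 20 probe sets against Control (x axis), in CBFb_KD on the left and Ring1b_KD on the right. Points are limma estimates from 3 arrays a group, lines are 95% intervals, and filled red points were called. In Ring1b_KD, 3 of 5 Rnf2 probe sets and both Bmi1 probe sets lie at -0.9 or lower, and in CBFb_KD the only called point is a Pcgf6 probe set at -0.57.

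Rnf2 (chromosome 1, 151469398 to 151500991, GRCm38.p6) encodes the main catalytic subunit of PRC1 and is the target of the Ring1b hairpin. Probe set 1424873_at read 10.56, 10.68 and 10.72 in Control, 10.55, 10.52 and 10.57 in CBFb_KD, and 9.08, 8.96 and 8.92 in Ring1b_KD. All 3 Ring1b_KD arrays lay far below the 6 others, which overlapped. The fall in Ring1b_KD was -1.67 (95% interval -1.84 to -1.5), which leaves 31.5% of the Control signal (limma adjusted p = 2.11e-06). Probe set 1451519_at read 10.4, 10.41 and 10.52 in Control, 10.04, 10.23 and 10.34 in CBFb_KD, and 8.74, 8.74 and 8.72 in Ring1b_KD. It fell by 1.71 on the log2 scale in Ring1b_KD, to 30.6% of Control (limma adjusted p = 2.26e-06), and these were ranks 5 and 4 from the most lowered of the 45037 probe sets. Probe set 1448042_s_at read 6.86, 6.79 and 6.93 in Control, 6.46, 7.01 and 6.97 in CBFb_KD, and 5.94, 5.78 and 5.82 in Ring1b_KD. It fell 2.02-fold (limma adjusted p = 0.000665).

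The other two Rnf2 probe sets did not show the knockdown. Probe set 1448041_at read 7.02, 7.48 and 7.37 in Control and 7.18, 7.44 and 7.44 in Ring1b_KD, a difference of 0.07 (95% interval -0.27 to 0.4). Probe set 1448043_x_at read 7.25, 7.42 and 7.53 in Control and 7.21, 7.31 and 7.32 in Ring1b_KD, a difference of -0.12 (95% interval -0.31 to 0.07). Their groups overlapped, and both intervals exclude the size of the fall seen by the other 3. The place of each probe set on the Rnf2 transcript was not used here. The remaining Rnf2 transcript was thus measured at 30.6% to 49.5% of Control by 3 probe sets, and without a detectable fall by 2.

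In CBFb_KD, Rnf2 differed from Control by -0.24 to -0.02 over its 5 probe sets, and 0 of the 5 were called by limma (1 had an unadjusted p under 0.05). The value farthest from 0 came from 1451519_at, whose 3 CBFb_KD arrays were all below the Control arrays (limma adjusted p = 0.128). For 1424873_at the 95% interval ran from -0.27 to 0.07, so a fall of the size seen in Ring1b_KD lay outside it.

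Ring1 (chromosome 17, 34020792 to 34024680) encodes the paralogous RING subunit, which can take the place of Ring1b in PRC1. Its probe set read 8.9, 9.03 and 8.98 in Control, 8.89, 8.86 and 8.87 in CBFb_KD, and 8.53, 8.96 and 8.71 in Ring1b_KD. The CBFb_KD arrays were tight and just below the Control arrays, and the Ring1b_KD arrays were spread out, with array 2 inside the Control range. The difference in Ring1b_KD was -0.24 (95% interval -0.46 to -0.01, limma adjusted p = 0.194), and no rise of Ring1 was measured. It was -0.4 and called with median-centred arrays (limma adjusted p = 0.0343). In CBFb_KD it was -0.1 (95% interval -0.32 to 0.13).

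**Figure D2:**
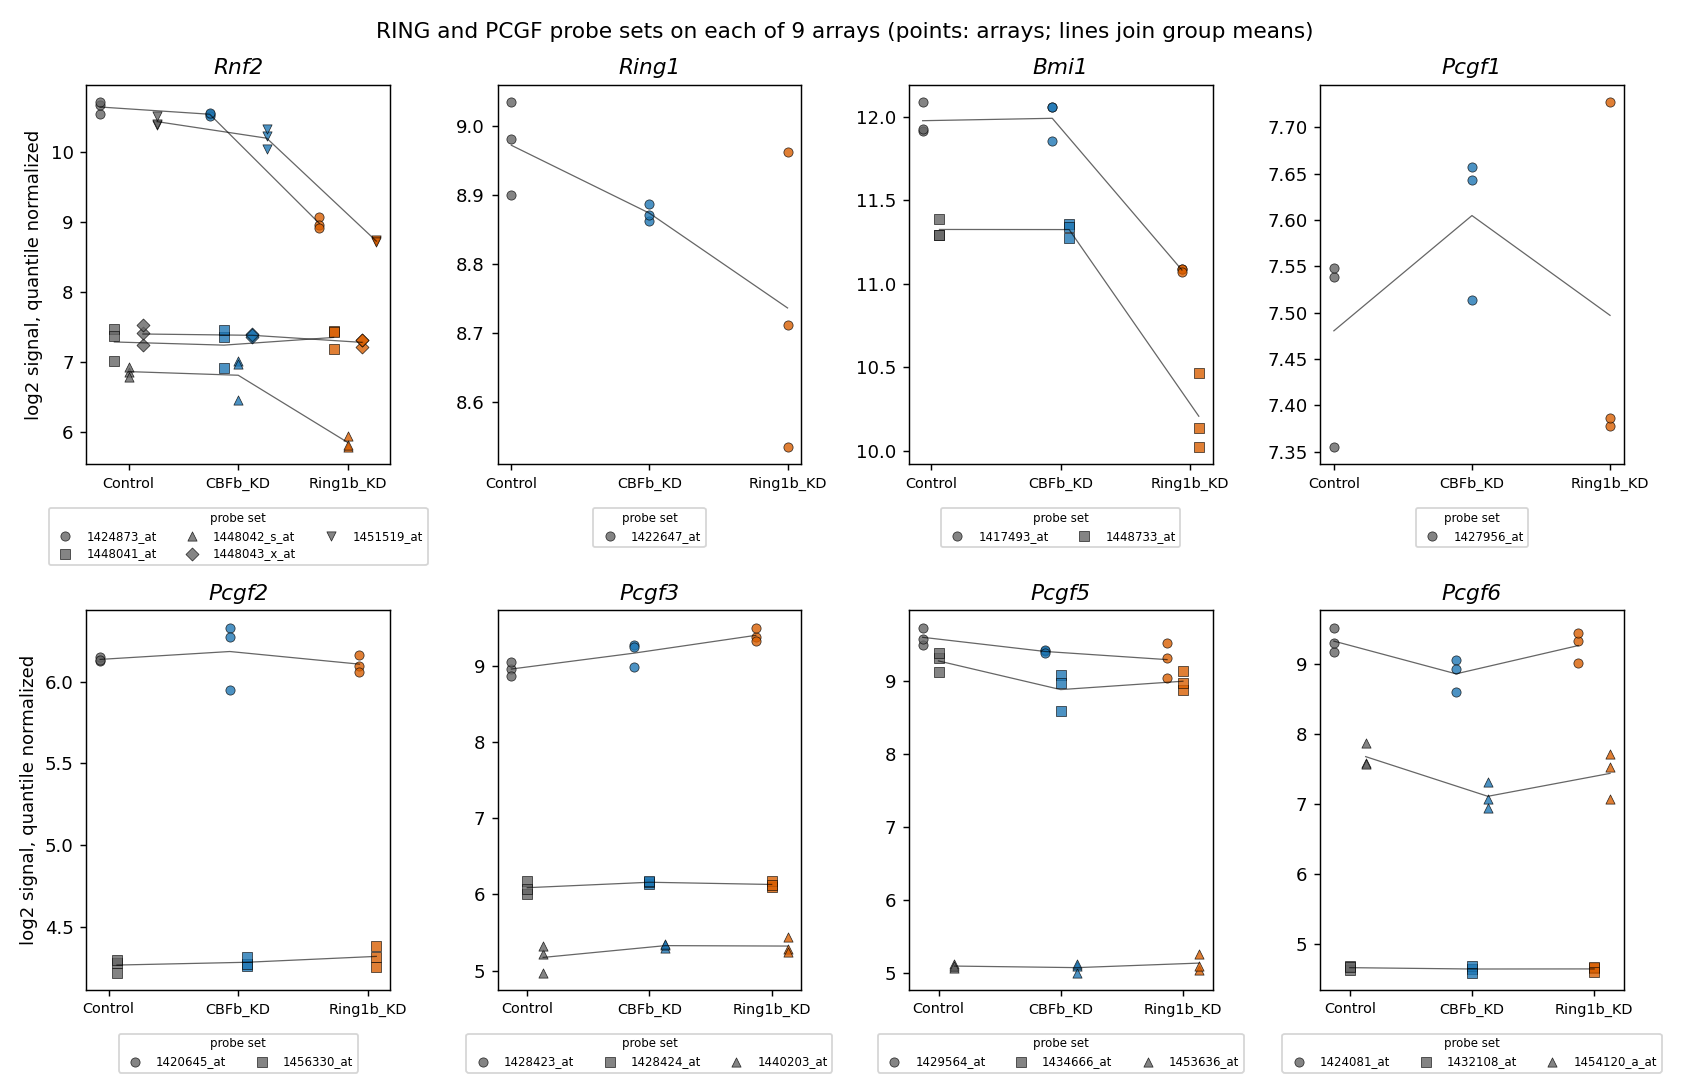
Quantile normalized log2 signal (y axis, a scale of its own for each gene) of every RING and PCGF probe set on the 9 arrays, by group (x axis). Points are arrays, marker shapes are probe sets and lines join group means. The Ring1b_KD points of both Bmi1 probe sets and of 3 Rnf2 probe sets lie below all other arrays of that probe set, while 2 Rnf2 probe sets stay level.

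Bmi1 (chromosome 2, 18677018 to 18686629) encodes a PCGF subunit of canonical PRC1 and is not named as a target of either hairpin. Whether the Ring1b hairpin acts on the Bmi1 transcript itself was not tested. Probe set 1417493_at read 11.92, 11.93 and 12.09 in Control, 11.86, 12.06 and 12.06 in CBFb_KD, and 11.09, 11.09 and 11.07 in Ring1b_KD. Probe set 1448733_at read 11.3, 11.29 and 11.39 in Control, 11.36, 11.28 and 11.34 in CBFb_KD, and 10.46, 10.13 and 10.02 in Ring1b_KD. For both, every Ring1b_KD array was below every other array, and the CBFb_KD and Control arrays overlapped. The falls in Ring1b_KD were -0.9 (95% interval -1.06 to -0.73, limma adjusted p = 5.71e-05) and -1.12 (95% interval -1.34 to -0.9, limma adjusted p = 8.58e-05). These leave 53.8% and 46.1% of the Control signal and were ranks 142 and 51 from the most lowered probe set. In CBFb_KD the differences were 0.01 (95% interval -0.15 to 0.18) and 0 (95% interval -0.22 to 0.22). Leaving out any 1 array kept both Ring1b_KD calls, with differences of -0.93 to -0.84 and -1.25 to -1.03. The 3 Rnf2 calls were kept too, at -1.71 to -1.63 for 1424873_at, -1.73 to -1.67 for 1451519_at and -1.06 to -0.98 for 1448042_s_at.

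Bmi1 is the PCGF gene with the widest shift, so the 250 bases before its start are shown, on the plus strand of GRCm38.p6, chr2:18676768-18677017, from RefSeq. The capitals mark an E box, CACGTG, 215 bases before the start, a site form bound by MYC and MAX family proteins.
Bmi1: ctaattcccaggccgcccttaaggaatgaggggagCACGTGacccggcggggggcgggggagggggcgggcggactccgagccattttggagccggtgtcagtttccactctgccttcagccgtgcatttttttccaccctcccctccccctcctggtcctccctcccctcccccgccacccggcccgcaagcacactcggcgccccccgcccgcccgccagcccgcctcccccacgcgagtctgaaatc
That motif, which reads the same on both strands, was in 7.15% of 32851 promoter windows of 300 bases (250 before and 50 after a start) and in 2 of the 9 windows of 7 of the genes, those of Bmi1 and Pcgf2. Pcgf1 had no window in the table. Neither TGTGGT nor TGCGGT, core forms that RUNX proteins bind, was in the Bmi1 window on either strand. The Bmi1 window held 23 CpG dinucleotides and the Rnf2 window 30, where the median window held 7 and the upper quartile was 20. High counts were not particular to these genes, with 37 in Ring1, 23 in Pcgf3, 22 in Pcgf6, 10 in Pcgf2 and 34, 5 and 35 in the windows of Pcgf5.

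The other subunit of canonical PRC1, Pcgf2, also called Mel18, was read below the median signal of all probe sets. Probe set 1420645_at read 6.13, 6.15 and 6.13 in Control, 6.33, 6.28 and 5.95 in CBFb_KD, and 6.17, 6.1 and 6.06 in Ring1b_KD, and 1456330_at stayed between 4.22 and 4.39 on all 9 arrays. Groups overlapped for both, and the differences were -0.03 and 0.05 in Ring1b_KD and 0.05 and 0.02 in CBFb_KD. For 1420645_at the 95% intervals ran from -0.24 to 0.18 and from -0.16 to 0.26. Summarised signals are compressed at such levels, so a change of Pcgf2 may not have been detectable. No rise of Pcgf2 beside the fall of Bmi1 was measured.

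Pcgf1 (chromosome 6, 83077552 to 83080855) encodes the PCGF subunit of the complex with KDM2B and BCOR, which binds unmethylated CpG islands. It read 7.36, 7.54 and 7.55 in Control, 7.51, 7.66 and 7.64 in CBFb_KD, and 7.73, 7.38 and 7.39 in Ring1b_KD. The groups overlapped, and the highest value came from Ring1b_KD array 1 alone. The differences were 0.12 (95% interval -0.11 to 0.36) in CBFb_KD and 0.02 (95% interval -0.22 to 0.25) in Ring1b_KD, and neither was called.

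Pcgf3 (chromosome 5, 108461259 to 108506976) and Pcgf5 encode related subunits of complexes that also hold AUTS2 family proteins and casein kinase 2. Pcgf3 probe set 1428423_at read 8.96, 8.86 and 9.05 in Control, 9.27, 8.98 and 9.25 in CBFb_KD, and 9.37, 9.5 and 9.32 in Ring1b_KD. The Ring1b_KD arrays were all above the Control arrays, and the CBFb_KD arrays lay between, overlapping Control. The rise in Ring1b_KD was 0.44 (95% interval 0.23 to 0.66), or 1.36-fold (limma adjusted p = 0.0168). This call depended on the scaling and on single arrays. The difference was 0.27 with median-centred arrays (limma adjusted p = 0.12). It was 0.39 without Ring1b_KD array 2 (limma adjusted p = 0.0653), 0.44 without Control array 1 (0.0526) and 0.39 without Control array 2 (limma adjusted p = 0.083). The other two Pcgf3 probe sets were below the median probe set and differed by 0.04 and 0.15, and the mean of the 3 gave 0.21 (limma adjusted p = 0.065). In CBFb_KD 1428423_at differed by 0.21 (95% interval -0.01 to 0.42, limma adjusted p = 0.268).

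Pcgf3 and Pcgf6 each had the RUNX core form TGTGGT before the start, and their upstream bases from RefSeq (GRCm38.p6) are shown because CBFb is the partner of RUNX proteins. The capitals mark the form, which reads ACCACA on the strand printed. The Pcgf3 bases are chr5:108461009-108461258 on the plus strand, with the match 163 bases before the start. The Pcgf6 bases are chr19:47050940-47051156 on the minus strand, with the match 49 bases before the transcript start that the window is set on. That start lies inside the gene's record, and the 33 bases between the edge of the record and the start are not printed.
Pcgf3: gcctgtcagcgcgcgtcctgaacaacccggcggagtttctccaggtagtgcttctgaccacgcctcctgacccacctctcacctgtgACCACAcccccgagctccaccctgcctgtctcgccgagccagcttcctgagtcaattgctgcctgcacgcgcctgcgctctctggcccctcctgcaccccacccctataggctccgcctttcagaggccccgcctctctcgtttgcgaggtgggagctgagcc
Pcgf6: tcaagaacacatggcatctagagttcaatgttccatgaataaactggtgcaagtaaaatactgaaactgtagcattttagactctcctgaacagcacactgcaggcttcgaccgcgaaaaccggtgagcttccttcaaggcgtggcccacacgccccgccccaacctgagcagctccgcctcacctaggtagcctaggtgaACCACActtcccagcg
On either strand, TGTGGT was in 16.8% and TGCGGT in 6.45% of all windows, and 22.4% held at least 1 of them. Of the 9 windows, 3 held one, those of Pcgf2, Pcgf3 and Pcgf6, and in Pcgf2 it lay after the start.

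Pcgf5 (chromosome 19, 36348329 to 36460970) had 0 of its 3 probe sets called by limma in either knockdown, and 1 in each had an unadjusted p under 0.05. Probe set 1429564_at read 9.49, 9.73 and 9.57 in Control, 9.41, 9.42 and 9.39 in CBFb_KD, and 9.32, 9.04 and 9.52 in Ring1b_KD. The CBFb_KD arrays were all just below Control, and Ring1b_KD array 3 lay inside the Control range. The Ring1b_KD difference was -0.31 (95% interval -0.55 to -0.06, limma adjusted p = 0.125). It was called with the values as deposited (-0.41, limma adjusted p = 0.0453), with median-centred arrays (-0.49, limma adjusted p = 0.0239) and without Ring1b_KD array 3 (-0.42, limma adjusted p = 0.0347). Probe set 1434666_at read 9.13, 9.31 and 9.38 in Control, 9.09, 8.58 and 8.98 in CBFb_KD, and 9.14, 8.88 and 8.97 in Ring1b_KD. In CBFb_KD it differed by -0.39 (95% interval -0.67 to -0.11, limma adjusted p = 0.0817), and by -0.5 with a call when CBFb_KD array 1 was left out (limma adjusted p = 0.0334). The dim probe set 1453636_at stayed between 5 and 5.26 on all arrays.

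Pcgf6 (chromosome 19, 47033617 to 47050939) encodes the subunit of the PRC1 that holds MGA, MAX and L3MBTL2, and it was the only one of the 8 genes with a call in CBFb_KD. That single call among 20 probe sets is near the 4.76% called lower over all, so the count does not set the members apart. Probe set 1454120_a_at read 7.58, 7.57 and 7.86 in Control, 7.08, 6.93 and 7.31 in CBFb_KD, and 7.53, 7.07 and 7.71 in Ring1b_KD. All CBFb_KD arrays were below all Control arrays, and Ring1b_KD spanned both groups. The fall in CBFb_KD was -0.57 (95% interval -0.9 to -0.23), or 1.48-fold (limma adjusted p = 0.0359). Probe set 1424081_at read 9.16, 9.29 and 9.52 in Control, 9.06, 8.59 and 8.92 in CBFb_KD, and 9.33, 9.01 and 9.44 in Ring1b_KD. Its CBFb_KD arrays were again all below Control, with a difference of -0.47 (95% interval -0.78 to -0.16) that missed the threshold (limma adjusted p = 0.062). The dim probe set 1432108_at stayed between 4.59 and 4.69 on all arrays. In Ring1b_KD the 3 probe sets differed by -0.06, -0.02 and -0.24, with 0 called.

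Deviations of same-numbered CBFb_KD and Control arrays correlated at 0.121, 0.281 and 0.137, while arrays of different groups and numbers ran from -0.267 to 0.148. The labels name no block, so a pairing by number is not established. Once the number was fitted as a block, both brighter Pcgf6 probe sets were called. For 1424081_at the limma adjusted p was 0.0187 with the block on 9 arrays and 0.0319 on the 6 arrays of these groups, which brought the count in CBFb_KD to 2 of 20. The share called over all probe sets rose too, from 9.65% to 11.1% and 12.9%. Without the block, the call of 1454120_a_at did not survive the loss of any Control array or of CBFb_KD array 1 or 2. Its differences were then -0.55 without CBFb_KD array 1, -0.48 without CBFb_KD array 2, -0.61, -0.62 and -0.47 without Control arrays 1, 2 and 3 (limma adjusted p from 0.0665 to 0.164). Without CBFb_KD array 1 or Ring1b_KD array 2, 1424081_at was called (-0.57 with limma adjusted p = 0.0335, and -0.47 with 0.046). With 1 value per gene and no block, Pcgf6 was called by its brightest probe set (-0.47, limma adjusted p = 0.0382). The mean of its 3 probe sets was called too (-0.35, limma adjusted p = 0.0328). Megakaryocyte and platelet markers moved in the same comparison, with 5 of 12 called, as did 3 of 6 erythroid markers. With the brightest probe set per gene, 15.3% of all genes were called. Gp9 differed most of the 12, at a mean of 11.07 in CBFb_KD against 8.75 in Control. Pf4, Gp6, Vwf and Nfe2 were among those not called. The part of these markers in the Pcgf6 result was not tested.

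Set against each other, the knockdowns differed in 5 of the 20 probe sets, all higher in CBFb_KD, where 7.07% of all probe sets were called higher and 6.33% lower. These were the 3 Rnf2 probe sets at 1.56, 1.47 and 0.96 and the Bmi1 probe sets at 0.91 and 1.12 (limma adjusted p from 6.87e-07 to 0.000404). This is the direct test that the fall of Bmi1 was greater in Ring1b_KD than in CBFb_KD. The Rnf2 differences were set by the design, since Rnf2 is the target in Ring1b_KD, and cannot be weighed against those shares. For Pcgf6 the direct differences were -0.4 (limma adjusted p = 0.0862) and -0.33 (limma adjusted p = 0.199), neither of which passed the threshold. They were called without Ring1b_KD array 2 (-0.53 and -0.51), and the first also without CBFb_KD array 1 (-0.51). The share of all calls that were higher in CBFb_KD was 52.8% as quantile normalized and 81.6% with median-centred arrays, and the same count of 5 member probe sets was called under both. The median over the 20 was 0.05, beside -0.02 over all probe sets, and as it includes Rnf2 it cannot be weighed against that value.

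The partners of these subunits were taken from 7 lists with 55 measured genes and 149 probe sets. In CBFb_KD 10 of the 149 rose and 15 fell, and in Ring1b_KD 13 rose and 17 fell, with medians of -0.08 and 0.02. Over all probe sets 4.9% were called higher and 4.76% lower in CBFb_KD, and 3.77% and 4.71% in Ring1b_KD, and the counts of each list stand beside these shares. Probe sets of 1 gene are counted singly, so a few genes can make up a list's count. Of 21 probe sets of canonical chromobox, polyhomeotic and SAM domain subunits, 0 were called by limma in Ring1b_KD (4 had an unadjusted p under 0.05). In CBFb_KD 3 of them fell (4.76% over all probe sets) and 1 rose, which is near the 4.9% over all. Cbx2, a chromobox reader of Polycomb chromatin, fell by 0.48 and 0.55 on both probe sets (limma adjusted p = 0.0266 for the first), and Phc1, a polyhomeotic subunit, fell by 0.34 (limma adjusted p = 0.0271). With single arrays left out, the total of 4 dropped to 0 (array 2 of CBFb_KD or 3 of Control), 1 (array 3 of CBFb_KD or 2 of Control) or 2 (array 1 of Control). The Ring1b_KD total was 1 when Ring1b_KD array 1 was left out.

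**Figure D3:**
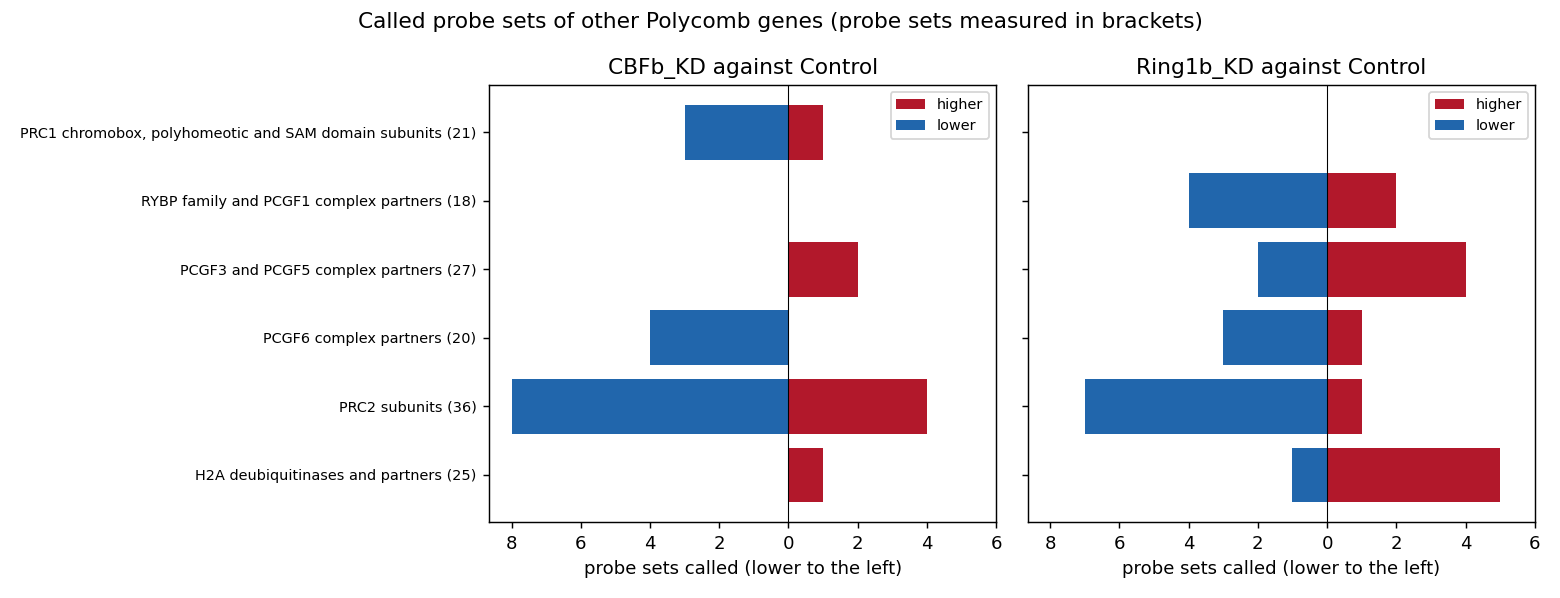
Number of probe sets called in 6 lists of Polycomb genes, in CBFb_KD (left) and Ring1b_KD (right) against Control. Bars to the right count probe sets that were higher and bars to the left those that were lower, and brackets give the probe sets measured. The chromobox and polyhomeotic list has no call in Ring1b_KD, and PRC2 has 8 lower in CBFb_KD and 7 lower in Ring1b_KD.

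Among 18 probe sets of RYBP family genes and PCGF1 partners, 2 rose and 4 fell in Ring1b_KD, where 3.77% and 4.71% of all probe sets did so. The 4 that fell were all of Usp7, a deubiquitinase found in PRC1 (-0.71 for the most significant, limma adjusted p = 0.00102), out of its 7 probe sets. The 2 that rose were both of Skp1, a subunit of ubiquitin ligase and BCOR complexes (0.62 for the first, limma adjusted p = 0.00315), and with median-centred arrays 0 rose in this list. In CBFb_KD 0 of the 18 were called by limma (6 had an unadjusted p under 0.05), and 4 were called with the replicate block on the CBFb_KD and Control arrays. The CBFb_KD count was 1 without CBFb_KD array 1, 3 without Ring1b_KD array 1 and 2 without Ring1b_KD array 3.

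Among 27 probe sets of PCGF3 and PCGF5 partners, 2 rose and 0 fell in CBFb_KD, where 4.9% and 4.76% of all probe sets did so. Both rises were of 1 gene, Fbrsl1, and 9.65% of all probe sets were called in either direction. In Ring1b_KD 4 rose and 2 fell, where 3.77% and 4.71% of all probe sets did so. Fbrsl1, an AUTS2 family gene, was called higher in both on 2 of its 3 probe sets, at 0.57 (limma adjusted p = 0.00138) and 0.47 (limma adjusted p = 0.00623) for the most significant. The third differed by -0.13 in CBFb_KD and 0.12 in Ring1b_KD. Csnk2a2, a catalytic subunit of casein kinase 2, was higher in Ring1b_KD by 0.5 in 1 of its 7 probe sets (limma adjusted p = 0.00861). Median centring left 1 of the 4 rises in Ring1b_KD. The Ring1b_KD count of 6 was 2 or 3 without CBFb_KD array 3, Ring1b_KD array 1 or 2, or any Control array, and that of 2 in CBFb_KD was 1 when either CBFb_KD array 2 or Control array 3 was dropped.

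PCGF6 partners fell in 4 of 20 probe sets in CBFb_KD, with 0 higher, where 4.76% of all probe sets were called lower and 4.9% higher. The list median was -0.24, beside -0.01 over all probe sets. It was -0.21 for the PRC2 list in the same comparison, so the shift is not particular to PCGF6 partners. Wdr5, a WD repeat protein shared with histone methyltransferase complexes, fell by 0.74 and 0.61 on its probe sets (limma adjusted p = 0.00124 for the first). Mga, the DNA-binding scaffold of the Pcgf6 complex, fell by 0.47 in 1 of 5 probe sets (limma adjusted p = 0.00726). In Ring1b_KD 3 fell and 1 rose, beside 4.71% and 3.77% over all. Hdac2, a histone deacetylase, fell by 0.65 (limma adjusted p = 0.00325) in 1 of the 2 called among its 3 probe sets, while its paralogue Hdac1 rose by 0.35 (limma adjusted p = 0.0104), a rise that was absent from the calls as deposited and as median-centred.

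PRC2 subunits were called lower in 8 of 36 probe sets in CBFb_KD and in 7 in Ring1b_KD, beside 4.76% and 4.71% over all probe sets. They were called higher in 4 and 1, beside 4.9% and 3.77%, and the single rise in Ring1b_KD is not above that share. Suz12, a core subunit of PRC2, fell in CBFb_KD in 4 of 6 probe sets (-0.76 for the most significant, limma adjusted p = 0.000265). In Ring1b_KD 2 of the 6 were called lower, at -0.38 (limma adjusted p = 0.0262) and -0.34 (limma adjusted p = 0.0412). Jarid2, which helps to bring PRC2 to chromatin, went opposite ways. It was higher in CBFb_KD by 0.54 to 0.7 on its 3 probe sets. In Ring1b_KD it was called lower by 0.98 (limma adjusted p = 0.00269) and by 0.6 (limma adjusted p = 0.0396). The remaining probe set differed by -0.43 in Ring1b_KD and was not called (limma adjusted p = 0.0601). The direct difference between the knockdowns ran from 1.13 to 1.51 on the 3 (limma adjusted p from 7.02e-05 to 0.000263). Phf1, a PRC2 accessory subunit, rose by 0.56 in CBFb_KD (limma adjusted p = 0.00337) and by 0.48 in Ring1b_KD (limma adjusted p = 0.0104). With the replicate block on the CBFb_KD and Control arrays, 20 PRC2 probe sets were called in place of 12, and 7 without Control array 2 or 3. The Ring1b_KD count of 8 was 5 without Ring1b_KD array 3 or Control array 1, 4 without Control array 2 and 2 without Control array 3.

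Of 25 probe sets of enzymes that remove ubiquitin from H2A and their partners, 5 rose and 1 fell in Ring1b_KD, where 3.77% and 4.71% of all probe sets did so. All 6 belong to Usp3 and Asxl2, 2 of the 9 genes of the list. Usp3, an H2A deubiquitinase, rose in Ring1b_KD in 2 of its 5 probe sets, by 0.67 in the most significant (limma adjusted p = 0.00207). In CBFb_KD that probe set alone was called, at 0.37 (limma adjusted p = 0.0342), and 1 call in 25 is near the 4.9% called higher over all. Asxl2, a partner of the deubiquitinase Bap1, rose by 0.72 in Ring1b_KD (limma adjusted p = 0.00594), but another of its probe sets fell by 0.41. Median-centred arrays gave 3 rises and 2 falls in this list, and the count of 6 was 3 without Control array 2 or 3. The CBFb_KD call was lost without CBFb_KD array 2 or 3, without any 1 Control array, and with median-centred arrays, and the count was 2 with the block on 6 arrays and without CBFb_KD array 1.

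The Ink4 genes, known as targets of repression by Bmi1, were both called higher in CBFb_KD, and neither was called in Ring1b_KD. Bmi1 transcript still read 53.8% and 46.1% of Control in Ring1b_KD, and a link between Bmi1 and these genes was not tested. Cdkn2b, an inhibitor of cyclin D kinases, read 7.58, 7.84 and 7.36 in Control, 7.91, 7.78 and 7.54 in Ring1b_KD, and 8.97, 9.11 and 9.31 in CBFb_KD. The Ring1b_KD arrays overlapped Control and the CBFb_KD arrays lay above all others. The difference was 0.15 in Ring1b_KD (95% interval -0.14 to 0.45) and 1.54 in CBFb_KD (limma adjusted p = 5.47e-05). Cdkn2a, which encodes an Ink4 inhibitor and Arf, read 10.49, 10.55 and 10.48 in Control, 10.41, 10.57 and 10.35 in Ring1b_KD, and 11.11, 11.19 and 11.31 in CBFb_KD. It differed by -0.06 in Ring1b_KD (95% interval -0.24 to 0.11) and by 0.7 in CBFb_KD (limma adjusted p = 0.000315). In the direct comparison CBFb_KD exceeded Ring1b_KD by 1.39 for Cdkn2b (limma adjusted p = 5.64e-05) and by 0.76 for Cdkn2a (limma adjusted p = 0.000106).

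The genes whose pattern over the 9 arrays was nearest were found by the root mean square difference of log2 signals, each set to its Control mean, with 1 probe set per gene. For Rnf2 (1424873_at) these were Ei24 at 0.147, Mrpl18 at 0.182 and Gem at 0.208, which differed in Ring1b_KD by -1.45, -1.73 and -1.45. For Bmi1 (1417493_at) they were Hspa13 at 0.087, Xpa at 0.102 and Fbxo22 at 0.103, with Ring1b_KD differences of -0.82, -0.92 and -0.85. For Pcgf6 (1424081_at) they were Srm at 0.057, Usp10 at 0.071 and Siva1 at 0.078, with CBFb_KD differences of -0.53, -0.51 and -0.51. The pattern of Pcgf6 thus includes the low CBFb_KD array 2 and Ring1b_KD array 2 seen in all 4 profiles. The points share their arrays, so likeness also includes what any 1 array adds to many genes, and it is given as a description.

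**Figure D4:**
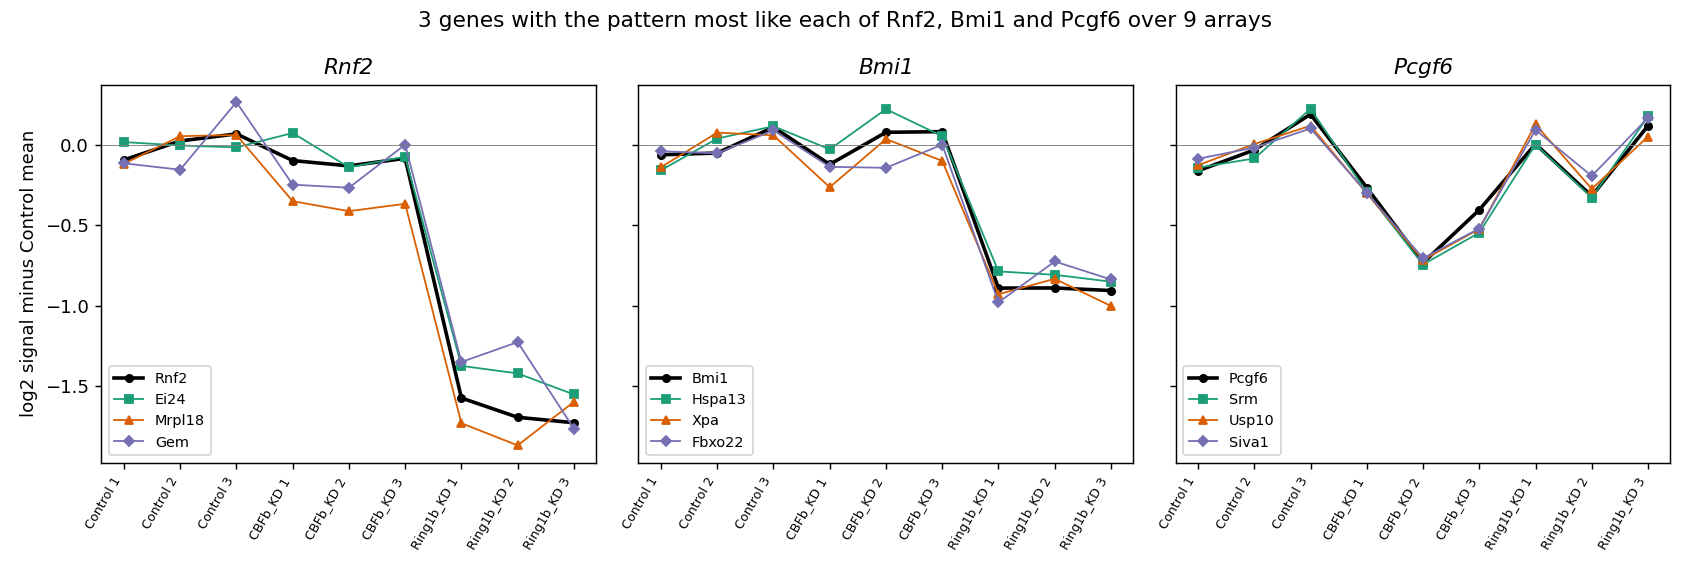
Log2 signal minus the Control mean (y axis) on the 9 arrays (x axis) for Rnf2, Bmi1 and Pcgf6 (black, 1 probe set each) and the 3 genes nearest to each (coloured). Rnf2 and its neighbours drop by more than 1 in all Ring1b_KD arrays, Bmi1 and its neighbours by less than that on most, and Pcgf6 and its neighbours are lowest in CBFb_KD array 2.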

How the data were processed

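The 9 arrays carry 1 colour, with biotin-labelled RNA of L8057 cells primed from the poly(A) tail, per the labels' protocols. The deposited values are log2 signals, from 3.227 to 15.355, made by the authors. Which software, background correction and normalization they went through is not given in the sources used here. Of 45101 probe sets, 64 controls were left out. The platform annotation gave 1 symbol for 34945 probe sets, several for 932 and none for 9160. Because the array medians spanned 0.138, values were quantile normalized. R 4.3.3 and limma 3.58.1 served to fit group means on all 9 arrays, without a block (lmFit, then eBayes with a mean-variance trend), and tests were two-sided. The script was tested on simulated data. No depth applies to arrays; their number limits the precision.

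The members and gene lists were chosen with earlier results of these data known. Named were all 8 genes, Cbfb, Cdkn2a and Cdkn2b, up to 2 called genes per list and knockdown by smallest adjusted p, the 3 nearest patterns to Rnf2, Bmi1 and Pcgf6, and markers of 6 lineage lists. Of these, Pf4, Gp6, Vwf, Nfe2 and Gp9 were picked after their values were seen. Deviations of CBFb_KD and Control arrays with the same number in the labels correlated at 0.121, 0.281 and 0.137. Those of Ring1b_KD and Control gave -0.145, 0.037 and 0.061, and those of CBFb_KD and Ring1b_KD gave 0.156, 0.087 and 0.023. Arrays of different groups and numbers ran from -0.267 to 0.148. The labels name no block, so a pairing by number is not established, and the block was fitted only as an alternative. Promoter windows and gene positions are from RefSeq on GRCm38.p6. The bases printed before a start leave out those inside the gene's own record. Alternatives covered scaling, dim probe sets, the block, the moderation, one value per gene and leaving out each array.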

Additional observations from a re-analysis of the deposited data

How the results depend on the processing

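No member value that was called reversed. Of 1007 values of single probe sets or genes recomputed under the alternatives, 980 kept their side of the threshold, 17 gained a call and 10 lost one. In CBFb_KD the count of called member probe sets went from 1 to 2 with dim probe sets left out (2 of 13), with the replicate block (limma adjusted p = 0.0187 for Pcgf6 1424081_at) and with the replicate block on the CBFb_KD and Control arrays alone, an alternative chosen after seeing the data. The count ran from 0 to 2 when 1 array was left out. Over all probe sets the share called in CBFb_KD was 9.65% in the main fit and also rose. It was 21.6% with dim probe sets left out, 11.1% with the block and 12.9% with the block on those arrays alone. With 1 value per gene the CBFb_KD count was 1 of 8, Pcgf6, by the brightest probe set and by the mean. Over all genes 15.3% and 14.2% were called in these fits. In Ring1b_KD the count of 6 became 3 of 8 with the brightest probe set per gene, which counts each of the 3 genes once, and 2 of 8 with probe sets averaged per gene, where Pcgf3 lost its call (0.21, limma adjusted p = 0.065). It ran from 5 to 7 without 1 array. Over all genes, 12.2% were called in Ring1b_KD with the brightest probe set per gene and 9.78% with probe sets averaged. Between the knockdowns the count of 5 became 2 of 8 under both of these, and ran from 5 to 7 without 1 array. The replicate block gave 7, although a pairing by number is not established. The 2 gained were Pcgf6 1424081_at (-0.4, limma adjusted p = 0.0326) and 1454120_a_at (-0.33, limma adjusted p = 0.046). The block changed no other member call. Over all, the share called between the knockdowns was 13.4% in the main fit and 14.8% with the block. It was 19.4% with the brightest probe set per gene and 16.9% with probe sets averaged. Over all probe sets 4347 calls in CBFb_KD, 3821 in Ring1b_KD and 6035 for one knockdown against the other fell to 2372 and 1695 without Control array 3 and to 3971 without CBFb_KD array 3. Of 343 list counts, 295 stayed within 1.5 times and 48 moved; the cause was not tested. Signals of the 7 member probe sets below the median limit what can be seen for them.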
